A study of Homo sapiens with 8 samples.

Results

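The 725 guide RNAs described here target transcripts of 15 genes that encode subunits of RNA polymerases I, II and III. They were taken from the 46829 guides of a growth screen by gene symbol, and they lie on 98 of its 6735 targeted splice junctions and in 15 of its 1250 genes. The screen used A375, an established human melanoma line, in the form of a monoclonal derivative, so that all libraries come from 1 clone. That clone carried RfxCas13d, an RNA-cutting CRISPR nuclease, behind a TetO promoter that doxycycline switches on. Guides were delivered by lentivirus and counted in genomic DNA. There were 2 replicates of untreated cells at Day 0 and 2 each of cells under 1 ug/ml doxycycline at Day 7, Day 14 and Day 21. The labels do not say that the replicates were separate cultures, so the p-values below measure the spread between these libraries, which may be technical. Values are log2 fold changes of guide abundance relative to Day 0 within a replicate. A negative value means that cells with the guide made up less of the pool than at the start. The 3 days of a replicate were taken to share 1 Day 0 library, as described under processing, and are not independent of each other.

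RNA polymerase I makes the large ribosomal RNA precursor, polymerase II makes messenger RNA, and polymerase III makes transfer RNA and other short RNAs. All of them are built around a catalytic core of large subunits, and they share a set of small subunits, while polymerases I and III also share an assembly pair that has its own counterpart in polymerase II. These enzymes serve every growing cell.

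The guides fall into 5 classes by textbook membership. POLR2C, POLR2I and POLR2J belong to polymerase II only (84 guides), POLR1B, POLR1E and ZNRD1 to polymerase I only (107 guides), and 5 genes, among them POLR3A, POLR3B, POLR3E and POLR3K, to polymerase III only (462 guides). POLR1C is shared by polymerases I and III (24 guides). POLR2E, POLR2H and POLR2K are shared by all 3 enzymes (48 guides). A junction had at most 8 guides, which share their target and are not replicates of each other. Coordinates are those of the deposited table, for which the submitters' processing notes name hg38. All 98 junctions lay inside the span of their gene in RefSeq (GRCh38.p14), where ZNRD1 is listed as POLR1H. A junction is written with the start and end that the table lists for it, and its guides target the spliced transcript there. The table holds no guide sequences, and guides are named by their number on the junction.

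Read depth was not stated. The smallest whole number that fits a guide at Day 0, a lower bound on what was counted there, had a median of 92 over the polymerase guides in replicate 1 and 125 in replicate 2. A number of 1, the lowest possible, was held by 12 polymerase guides of replicate 1 and 17 of replicate 2 on Day 21, where any deeper loss is hidden. The median over all 46829 guides at Day 7 was 0.01 in replicate 1 and −0.10 in replicate 2.

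By Day 21, guides against 4 of the 15 genes had fallen on average: POLR2E, POLR2I, POLR1B and POLR1C. None of the 4 encodes a subunit found in polymerase III alone, and guides against the 5 genes of that class stayed near 0. A gene was called when the mean over its guides differed from 0 at a limma adjusted p under 0.05. The call was made over the 1223 genes with at least 3 guides. The 4 genes are 26.7% of the polymerase genes, and 20.8% of all genes tested and 28.2% of the genes with a GeCKO score, a deposited column named after a Cas9 knockout library that covers all 15, were called lower at Day 21. The share among polymerase genes was thus near the background. At Day 14, 5 of 15 (33.3%) were called, against 22.1% of all and 29.4% of scored genes. At Day 7, 2 of 15 (13.3%) were called, against 3.92% and 5.43%. In limma 0 polymerase genes were called higher at Day 21 (0 also at an unadjusted p under 0.05), against 0.654% of all genes.

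Of the subunits shared by all 3 enzymes, POLR2E encodes a subunit of the jaw that grips the DNA ahead of the active site. Its 8 guides all target 1 junction, chr19:1094078-1095258. Their mean log2 fold change was −1.12 and −1.63 at Day 7 in replicates 1 and 2, −2.94 and −4.61 at Day 14, and −3.88 and −4.45 at Day 21. Both replicates were low from Day 7 on. The Day 21 mean of −4.16 ± 0.40 (SD, n = 2) stands for 5.59% of the Day 0 abundance and was rank 13 of 829 scored genes, counted from the lowest. The limma adjusted p for the 3 days in turn was 0.0035, 0.0088 and 0.011, and the Day 7 call was lost in 4 alternatives (adjusted p from 0.14 to 0.36). All 8 guides were below −1 in both replicates at Day 14 and at Day 21. The lowest, guide 1, had −6.22 and −6.37 at Day 21, and the highest, guide 3, still had −2.36 and −3.25.

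Neither of the other shared subunits passed the test at any day. POLR2H, a small subunit of the core, had a Day 21 mean of −0.08 in replicate 1 and −0.04 in replicate 2 over 24 guides. POLR2K, a small zinc-binding subunit, had −0.34 and 0.25 over 16 guides. POLR2K thus took opposite signs in the replicates, and its lowest guide had −0.22 in replicate 1 against −3.40 in replicate 2. The limma adjusted p was 0.81 for POLR2H and 0.90 for POLR2K. The 95% interval of the mean ran from −0.48 to 0.36 for POLR2H and from −0.68 to 0.59 for POLR2K, far above the POLR2E mean.

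Among the subunits of polymerase II alone, POLR2I encodes a zinc ribbon subunit with a role in transcript cleavage and fidelity. Its 24 guides averaged −0.57 and −0.77 at Day 7, −1.59 and −1.56 at Day 14, and −1.86 and −2.18 at Day 21. The values of the 3 days did not overlap. At Day 21 the mean was −2.02 ± 0.23 (SD, n = 2), which stands for 24.7% of the Day 0 abundance. POLR2I was called at all 3 days, with limma adjusted p of 0.025, 0.0059 and 0.013. The Day 7 call was lost in 5 alternatives (limma adjusted p from 0.071 to 0.26), and with the median over guides the Day 14 value was −0.59 and not called (adjusted p = 0.20). Unlike those of POLR2E, its guides were split: 9 of 24 were called lower at Day 21, and 5 were above 0 in both replicates. Guide 2 on chr19:36114251-36114338 had −5.47 and −8.11 at Day 21, whereas guide 7 on chr19:36114713-36114797 had 1.44 and 1.17.

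POLR2C encodes the polymerase II subunit of the assembly platform and pairs with the product of POLR2J. Its 56 guides averaged −0.13 and −0.17 at Day 7, −0.62 and −0.60 at Day 14, and −0.63 and −0.86 at Day 21. The mean was called at Day 14 (limma adjusted p = 0.040) but not at Day 21, where it was −0.74 ± 0.16 (SD, n = 2) with an adjusted p of 0.056. The Day 14 call was lost with the median over guides (−0.15, limma adjusted p = 0.66), on centring on all guides (−0.38, adjusted p = 0.15) and on centring on control guides (adjusted p = 0.073). With all days in 1 fit and the replicate number as a block, the Day 21 value was called (limma adjusted p = 0.0018). Of its guides, 9 were called lower at Day 21 and 12 were above 0 in both replicates. POLR2J, its partner, was covered by 4 guides on chr7:102473684-102474360 and did not pass the test. It had 0.23 and 0.36 at Day 21, a mean of 0.29 ± 0.09 (SD, n = 2) with a limma adjusted p of 0.25. POLR2J has near-identical copies in the genome, and which of their transcripts the 4 guides match cannot be told from the table.

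Of the polymerase I subunits, POLR1B encodes the second-largest, which forms the active site together with the largest. Its 43 guides averaged 0.06 and −0.39 at Day 7, −0.91 and −0.98 at Day 14, and −1.11 and −1.50 at Day 21. The replicates differed in sign at Day 7 and were both low later. The Day 21 mean was −1.30 ± 0.28 (SD, n = 2), which stands for 40.5% of the Day 0 abundance. It was called at Day 14 (limma adjusted p = 0.014) and at Day 21 (adjusted p = 0.023), but with the median over guides not at Day 14 (−0.44, adjusted p = 0.17). Guide 1 on chr2:112568902-112572561 had −7.08 and −7.25 at Day 21, a whole number of 1 in both replicates, whereas the highest guide had 0.52 and 1.97.

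POLR1E encodes a subunit of the pair that resembles an initiation factor of polymerase II, and ZNRD1 encodes the zinc ribbon subunit of polymerase I. POLR1E had −0.36 and −0.04 at Day 21 over 48 guides, and ZNRD1 had −0.08 and −0.04 over 16 guides. Neither passed the test, with limma adjusted p of 0.46 and 0.82. The single guides of POLR1E ranged from −2.47 to 1.47 and those of ZNRD1 from −0.79 to 0.82, as means of the replicates, and none was called at Day 21. Within polymerase I, a fall was therefore called for 1 of the 3 subunits.

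POLR1C, the assembly subunit that polymerases I and III share, is the counterpart of POLR2C. Its 24 guides averaged 0.07 and −0.44 at Day 7, −0.56 and −1.12 at Day 14, and −0.94 and −1.39 at Day 21. Replicate 2 was lower at each day. The Day 21 mean was −1.17 ± 0.31 (SD, n = 2), 44.6% of the Day 0 abundance, with a limma adjusted p of 0.047 at Day 14 and 0.033 at Day 21. The Day 21 means of POLR1B and POLR1C differed by less than the SD of either. When each library was centred on its non-targeting guides, POLR1C was no longer called at Day 21 (limma adjusted p = 0.061), and its Day 14 call was lost in 5 alternatives (adjusted p from 0.055 to 0.15).

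None of the 5 genes of polymerase III alone was called at any day. POLR3A and POLR3B, the large subunits that form its active site, had 169 and 177 guides. POLR3A had 0.03 and 0.07 at Day 21, and POLR3B had 0.12 and 0.04. The 95% interval of the mean ran from −0.37 to 0.47 for POLR3A and from −0.34 to 0.51 for POLR3B, so the mean losses measured for POLR1B and POLR1C lie outside both intervals. POLR3E, of the initiation and termination module, had 0.06 and 0.23 over 84 guides. POLR3K, the zinc ribbon subunit that takes part in termination, had 0.06 and −0.26 over 8 guides. The limma adjusted p at Day 21 of these 4 genes lay between 0.55 for POLR3E and 0.83 for POLR3A.

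In order of the Day 21 mean, POLR2E was the lowest and POLR2I the next, each apart from its neighbours by more than the larger SD. POLR1B and POLR1C followed with overlapping values, then POLR2C and POLR1E, each again apart from the gene before it. A further 8 genes lay between −0.10 (POLR3K) and 0.29 (POLR2J). Neighbours among them differed by less than the larger of their SDs, other than POLR3E and POLR2J. The means of POLR2I, POLR1B and POLR1C rested on part of their guides. With the median over guides in place of the mean, POLR2E alone was called at Day 21, and the limma adjusted p was 0.084 for POLR2I, 0.12 for POLR1B and 0.12 for POLR1C. Centring each library on the median of all guides also left POLR2E as the only call, with 0.051 for POLR2I, 0.087 for POLR1B and 0.11 for POLR1C.

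Among guides against polymerase III subunits, low values were about as frequent as among non-targeting guides. At Day 21, 16.2% ± 0.92 (SD, n = 2) of the 462 polymerase III guides were at −1 or lower, against 16.8% ± 0.59 of the 963 non-targeting guides. The share was 36.3% ± 2.5 for polymerase II only, 36.5% ± 4.4 for the subunits of all 3, 29.4% ± 2.0 for polymerase I only and 43.8% ± 2.9 for POLR1C. It was 32.6% ± 1.6 for all guides of scored genes. Of the polymerase III guides, 3.90% were that low in both replicates, and so were 3.74% of the non-targeting and 26.2% of the polymerase II guides. Across guides, which share a library and a Day 0 reference and are not independent, the Day 21 values of the replicates had a Pearson r of 0.19 in polymerase III, 0.03 in non-targeting guides and 0.73 in polymerase II. The 1992 guides typed as non-essential controls had an r of 0.23. Of these controls, 21.6% ± 1.9 (SD, n = 2) were at −1 or lower and 7.23% were that low in both replicates.

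Single guides were called in the same way as genes, over the whole table. At Day 21, 49 of 725 polymerase guides (6.76%) were called lower, against 11.1% of all 46829 guides (limma, adjusted p under 0.05). With the replicate number as a block, 81 were called, against 19.3% of all guides in that same fit. At Day 14 the counts were 37 (5.10%) against 7.96%, and at Day 7 they were 8 of 725 against 2.10%, of which the block left 0 (22 had an unadjusted p under 0.05). Of the polymerase II guides 21.4% were called at Day 21, of those to subunits of all 3 18.8%, of the POLR1C guides 29.2% and of the polymerase I guides 8.41%. In polymerase III the share was 1.30%, or 6 of 462. The 8 guides called at Day 7 were 3 of POLR2E, 3 of POLR2I, 1 of POLR1B and 1 of POLR3A, and all 8 were called again at Day 14 and Day 21. Both later days called 34 guides in common. No such overlap was taken over all guides, and the days share a Day 0 library, so these overlaps are a description and no separate support.

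A single guide was called higher at Day 21, against 0.218% of all guides. It was guide 3 on chr16:22324413-22324502 in POLR3E. It rose from 0.48 and 0.59 at Day 7 through 1.53 and 2.39 at Day 14 to 2.11 and 4.18 at Day 21 (limma adjusted p = 0.0077). Both replicates were above 0 at each day, and the value in replicate 2 was the higher.

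Class medians were compared through the difference within each replicate, since the classes share a library. With 2 such differences an exact two-sided sign-flip test cannot go below 0.5, and no p is given. At Day 21 the median over genes was −0.74 ± 0.16 (SD, n = 2) for polymerase II only, −0.20 ± 0.23 for polymerase I only, −0.19 ± 0.21 for the subunits of all 3 and 0.07 ± 0.0066 for polymerase III only. Each of these medians was taken within a library and is the value of 1 gene, so its SD is no spread over genes. For polymerase II only that gene was POLR2C in both replicates, while POLR2I had a mean of −2.02 and POLR2J 0.29. For polymerase I only it was POLR1E. For the subunits of all 3 it was POLR2K in replicate 1 (−0.34) and POLR2H in replicate 2 (−0.04), with POLR2E at −4.16. For polymerase III only it was POLR3K in replicate 1 and POLR3A in replicate 2. The median was −0.06 over all 15 genes, against −0.43 over the 829 scored genes and −0.32 over all genes tested. Polymerase II minus polymerase III was −0.69 in replicate 1 and −0.93 in replicate 2 at Day 21, a mean of −0.81 ± 0.17. It was −0.21 ± 0.0018 at Day 7 and −0.61 ± 0.037 at Day 14, and at each day it was larger than the spread between replicates. POLR2C was the polymerase II median in each library. These SDs thus hold the scatter of single genes between replicates and not the spread within a class. Taken from the median over the guides of a gene, the Day 7, Day 14 and Day 21 differences were −0.19, −0.46 and −0.31.

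The remaining classes were set against polymerase III in the same way. At Day 21, polymerase I minus polymerase III was −0.27 ± 0.22 (SD, n = 2), with −0.43 and −0.12 in the replicates. The subunits of all 3 minus polymerase III gave −0.26 ± 0.21, and POLR1C minus polymerase III gave −1.23 ± 0.32. In the −0.26, POLR2K stood for the shared subunits in replicate 1 and POLR2H in replicate 2, with gene means of −0.04 and −0.06. These 4 differences from polymerase III were negative in both replicates at Day 21 and in each alternative summary of genes and classes that was run. The order among the other classes was not fixed in that way. Polymerase II minus polymerase I was −0.54 ± 0.39 but 0.01 with the median over the guides of a gene, and the subunits of all 3 minus polymerase II was 0.55 ± 0.37 but −0.60 with the mean over the genes of a class, which counts POLR2E in full.

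Guides on different junctions of the same gene were lost to different degrees. A junction was compared with all other guides of its gene within each library at Day 21, for 90 polymerase junctions. Of these, 8 (8.89%) were called lower than the rest of their gene, against 12.0% of the 6111 junctions tested, and 4 (4.44%) were called higher, against 9.92% (limma, adjusted p under 0.05). Of the 49 guides called lower at Day 21, 34 lay on these 8 junctions and on the POLR2E junction, which together hold 72 guides. The other 15 were spread over the remaining 653 guides. The 8 junctions were called from these same Day 21 values, and POLR2E was the lowest gene. The overlap is therefore a description and no separate support.

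In POLR2I, transcribed from the minus strand, the upstream junctions were lost and the last was not. The first, chr19:36114713-36114797, had a mean of −2.63 and −3.26 at Day 21, and the second, chr19:36114251-36114338, had −3.23 and −3.83. The third, chr19:36113817-36114014, had 0.29 and 0.55, and none of its 8 guides was called. Against the rest of the gene the differences were −1.39 ± 0.36 (SE), −2.27 ± 0.36 and 3.66 ± 0.37, with limma adjusted p of 0.0041, 7.4e-06 and 9.5e-10. The 3 differences come from the same junction means and are not separate findings. For the third, whose own mean was only 0.42, the rest of the gene is the low pair. On the second junction guides 1 to 4 were called and the other 4 were not, and guide 1, for example, had −6.36 and −6.42.

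In POLR2C, 7 junctions were targeted, and the largest loss lay on the pair next to the first. These are chr16:57466021-57466174, with −1.80 and −2.57 at Day 21, and chr16:57466227-57469164, with −2.13 and −2.96. They are neighbours that border the same stretch of 53 bases. Against the rest of the gene they differed by −1.68 ± 0.36 (SE) and −2.10 ± 0.37, with limma adjusted p of 0.00057 and 2.8e-05. The pair held 3 and 4 of the 9 POLR2C guides called lower at Day 21, and the fifth and seventh junctions held 1 each. The first junction, chr16:57462810-57463028, had 0.03 and −0.01. The fourth and the sixth, chr16:57469293-57469709 and chr16:57470129-57470279, were called higher than the rest, by 0.99 and 1.02, but had levels of only 0.11 and 0.13. The rest of the gene holds the low pair, and with the median over guides neither was called (limma adjusted p = 0.95 and 0.60).

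POLR1C had its largest loss on the middle of 3 junctions. That junction, chr6:43519440-43519705, had −2.27 and −3.24 at Day 21, the first, chr6:43517377-43519332, had −0.16 and 0.03, and the third, chr6:43520185-43520274, had −0.41 and −0.95. Of the 7 POLR1C guides called lower at Day 21, the middle junction held 4 and the third held 3. The middle junction differed from the rest of the gene by −2.38 ± 0.37 (SE, limma adjusted p = 4.0e-06). The first was called higher, by 1.66 ± 0.37 (adjusted p = 0.00080), from a level near 0, but with the median over guides it was 0.91 higher and not called (adjusted p = 0.19). The guides of the middle junction were uneven between replicates: guide 1 had 1.62 and −4.62, and guide 4 had −5.89 and −0.42. With guides of an implied Day 0 number of at least 50 in both replicates, the difference was −0.99 and was no longer called (limma adjusted p = 0.17).

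In POLR1B the fourth of 6 junctions, chr2:112568902-112572561, stood below the rest. It had −1.87 and −3.03 at Day 21 against −0.93 and −1.15 for the other guides of the gene, a difference of −1.40 ± 0.37 (SE, limma adjusted p = 0.0044). Guides 1, 2 and 3 were called, and guide 2 already at Day 7 with −1.22 and −2.27. Guides 5 and 6, on the same junction, had 0.37 and −0.71 and 0.49 and −0.16 at Day 21. With the median over guides the junction was no longer called (limma adjusted p = 0.36). Of the 6 POLR1B junctions, 5 had means below 0 in both replicates.

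Among the shared subunits, POLR2H had a junction that lay below the rest of its gene, which itself had a mean above 0; the junction was not tested against Day 0. Its junctions chr3:184366800-184368176 and chr3:184366800-184368112 start at the same base and end 64 bases apart, and the table puts them in the categories partial_unique and fully_unique, which it does not define. The first had −0.96 and −0.73 at Day 21 and the second 0.63 and −0.02. The partial_unique junction was lower than the rest of the gene by −1.18 ± 0.36 (SE, limma adjusted p = 0.015). The difference of the pair itself was −1.59 in replicate 1 and −0.71 in replicate 2, a mean of −1.15 ± 0.62 (SD, n = 2), with no test. A single guide of the partial_unique junction was called at Day 21, guide 2, with −2.20 and −2.85.

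In polymerase III a single junction of the 59 with at least 3 guides had a mean below −1 at Day 21, chr10:77993367-77999980 in POLR3A, and it was that low in replicate 1 only. It had −1.66 and −0.93, against 0.12 and 0.12 for the rest of the gene (difference −1.41 ± 0.37 (SE), limma adjusted p = 0.0038). Of its 8 guides 2 were called. Guide 7 had −0.37 and −2.89 at Day 7, −5.12 and −8.30 at Day 14, and −6.73 and −8.03 at Day 21, the lowest mean of all 725 guides. Guide 8 had −1.63 and −2.49 at Day 7, −3.65 and −3.42 at Day 14, and −4.99 and −4.89 at Day 21. Guide 5 of the same junction, by contrast, had 0.94 and 0.51. With the median over guides the junction was not called (limma adjusted p = 0.63).

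Junctions with a mean of −1 or lower in both replicates at Day 21 numbered 0 of 59 in polymerase III, 4 of 11 in polymerase II, 2 of 14 in polymerase I only, 1 of 3 in POLR1C and 1 of 6 in the subunits of all 3. In sum these were 8 of 93, or 8.60%, against 19.4% of 5786 junctions of scored genes. The other 4 guides called lower in polymerase III at Day 21 were scattered over as many junctions. They included guide 3 on chr12:106457296-106459250 in POLR3B, with −3.11 and −1.78, and guide 1 on chr16:22325266-22325760 in POLR3E, with −3.25 and −6.45. In POLR3E, the first and the last of 12 junctions are typed partial_unique. Their 16 guides averaged −0.48 ± 0.031 (SD, n = 2) at Day 21 and the 68 guides of the common junctions 0.29 ± 0.15, with the same order in both replicates. This difference was not tested. Low values were not particular to that type. The common junction chr16:22325266-22325760 had a mean of −0.66 over 8 guides, below both partial_unique junctions (−0.44 and −0.53). In POLR3A, the 16 guides typed fully_unique had −0.04 ± 0.071 and the 153 common guides 0.06 ± 0.025.

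The change with time was tested by itself, on the difference between days within a replicate, from which Day 0 drops out. From Day 7 to Day 21, 4 of 15 genes (26.7%) fell, against 23.5% of all genes, and they were the 4 called at Day 21. From Day 7 to Day 14, 5 of 15 (33.3%) fell, against 21.1%. These were the same 4 genes and POLR3K. From Day 14 to Day 21, limma called 0 polymerase genes in either direction (3 lower and 1 higher had an unadjusted p under 0.05), against 1.06% of all genes. Between Day 7 and Day 21 POLR2E changed by −2.76 and −2.82 in the replicates, and POLR2I by −1.29 and −1.41. POLR1B changed by −1.17 and −1.11, and POLR1C by −1.01 and −0.95.

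The replicates lay close together in these 4 genes, and limma gave adjusted p of 3.6e-06 for POLR2E, 0.00062 for POLR2I, 0.0019 for POLR1B and 0.0049 for POLR1C. When the median over guides replaced the mean, POLR2E was the single gene of these that kept its calls. The limma adjusted p for Day 7 to Day 21 was 0.15 for POLR2I, 0.14 for POLR1B and 0.23 for POLR1C, and the change of POLR2I from Day 7 to Day 14 was −0.0041 (adjusted p = 0.996) in place of −0.91. For POLR1C, the Day 7 to Day 21 call was also lost on centring on all guides (limma adjusted p = 0.059). A Day 0 number of at least 50 (0.067) and all days in 1 fit with no block (0.072) lost it too. POLR2C changed by −0.59 ± 0.13 (SD, n = 2) with an adjusted p of 0.066 in limma, and of 0.026 with the replicate block. POLR3K went from 0.09 and 0.31 at Day 7 to −0.46 and −0.22 at Day 14 and then to 0.06 and −0.26 at Day 21. The step to Day 14 was −0.54 ± 0.018 (SD, n = 2, limma adjusted p = 0.040), which the replicate block did not call (adjusted p = 0.11). It was also not called with the median over guides (limma adjusted p = 0.055) or a Day 0 number of at least 50 (0.068). Centring on all guides (0.15) or on control guides (0.076) lost the call too, as did all days in 1 fit with no block (0.15). No guide of POLR3K was called at any day.

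The deposited table types POLR1B, POLR1C, POLR1E, POLR2C, POLR2E and POLR2I as essential under Cas13 and the other 9 genes as not essential. The criterion is not stated and may have used these same fold changes, so the type is no independent support. POLR1E is typed essential with a Day 21 mean of −0.20 ± 0.23 (SD, n = 2) and no guide called. The GeCKO score, whose making is not stated, is negative for all 837 scored genes, with a median of −1.12. POLR2C had the lowest score of the 15, −1.84 (rank 9 of 837 from the lowest). ZNRD1 with −1.68 (rank 36) and POLR3A with −1.67 (rank 39) came next, with Day 21 means of −0.06 and 0.05. POLR2I, the second most depleted gene here, had −1.01 (rank 565), and POLR2H had the highest score, −0.92 (rank 711). Over the 15 genes, which share libraries, the score and the Day 21 mean had a Pearson r of 0.12 and a Spearman rho of 0.14, given as a description.

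Factors that work with the polymerases were taken from lists drawn up by function. Of the 62 genes listed, 28 had at least 3 guides, and 3 of these (10.7%) were lower at Day 21, against 20.8% of all genes tested, 3 were lower at Day 14, against 22.1%, and 0 were higher at Day 21 in limma, adjusted over all 1223 genes. At an unadjusted p under 0.05 there were 8 lower and 2 higher. The median Day 21 mean of the 28 was −0.13. Of the polymerase III factors 1 of 8 fell, GTF3C4, a subunit of the factor that binds the internal promoter of transfer RNA genes. Its 4 guides had −2.19 and −2.14 (limma adjusted p = 0.011). Of the other GTF3C genes tested, GTF3C3 had −0.91 and −0.40 over 40 guides and was not called (limma adjusted p = 0.11). GTF3C1 had −0.14 and 0.01 over 240 guides, and GTF3C6 had 0.07 and 0.01 over 24 guides. Of the assembly factors 1 of 8 fell, PFDN2, a prefoldin subunit, with −0.87 and −1.49 over 8 guides (adjusted p = 0.045 in limma).

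Of the polymerase II elongation and termination genes 1 of 9 fell. This was SUPT6H, a histone chaperone that travels with the enzyme, with −1.17 and −1.11 over 223 guides (limma adjusted p = 0.021). NELFB, a subunit of the pausing factor, had the highest mean of the 28, 0.68 and 0.67 in the replicates, and did not pass the test (limma adjusted p = 0.057). Of the polymerase I factors, 0 of 3 passed in limma (0 also at an unadjusted p under 0.05), and their median was −0.22.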

How the data were processed

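Guide abundance was measured in 8 libraries of genomic DNA: 2 replicates each at Day 0, Day 7, Day 14 and Day 21. The authors deposited 1 table of log2 fold changes per guide, day and replicate, and a GeCKO score per gene in the same deposited table. The submitters' processing notes name cutadapt 3.5, Bowtie 1.1.2 and hg38, with no role given. The scaling of libraries, any pseudocount and any filter are not given in the sources used here. All values were used as deposited. In the 6 libraries, 100% of the fold changes fit a library constant and a whole-number ratio (tolerance 1e-09 in log2). The largest denominator was 757 at Day 7, 14 and 21 of replicate 1, and 468, 467 and 468 at these days of replicate 2. The reference was therefore taken to be each replicate's own Day 0 library, which was not tested guide by guide.

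limma 3.58.1 in R 4.3.3 tested the 2 replicate values of each guide, and of each gene mean with at least 3 guides, against 0 at each day. Changes between days and junction means minus the rest of the gene were tested likewise. Benjamini-Hochberg adjustment ran over all features of the table, with a threshold of 0.05. The scripts were tested on simulated data. Deviations from the day means correlated between days within a replicate (0.48, 0.41 and 0.65 over 46829 guides). The shared Day 0 library is part of that, and a fit with the replicate number as a block was run as an alternative. Other alternatives were the centring of libraries, a minimum Day 0 number of 50, the median over guides, robust moderation and other summaries of a class.

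Members were the guides whose gene symbol begins with POLR1, POLR2 or POLR3 or is CD3EAP, ZNRD1 or TWISTNB, other than those typed as non-essential controls. The members and lists were chosen with earlier results of these data known. Values of 1 of the 15 genes are not reported here by name; it is part of the counts and class values. The guides named by rule are the lowest and highest of a gene at Day 21 and those called at Day 7. Other guides, named as examples of a junction, were chosen after their values were seen.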

Additional observations from a re-analysis of the deposited data

Results flagged for a closer look

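Polymerase genes whose change between 2 days passed the limma test (adjusted p under 0.05) are listed here, with the mean over 2 replicates on the log2 scale. From Day 7 to Day 21 the change was −2.79 for POLR2E, −1.35 for POLR2I, −1.14 for POLR1B and −0.98 for POLR1C. From Day 7 to Day 14 it was −2.40 for POLR2E, −0.91 for POLR2I, −0.78 for POLR1B, −0.65 for POLR1C and −0.54 for POLR3K. With the median over the guides of a gene, the change from Day 7 to Day 14 was −0.0041 for POLR2I (limma adjusted p = 0.996) and −0.42 for POLR1B (adjusted p = 0.31). It was −0.49 for POLR1C (adjusted p = 0.27) and −0.78 for POLR3K (adjusted p = 0.055), and none of these changes was called. On the means over guides, both replicates changed in the same direction in each case. POLR3K is the single one of these genes that was called at no day against Day 0, and its Day 21 mean was −0.10 ± 0.23 (SD, n = 2).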

How the results depend on the processing

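The direction of the 4 polymerase genes called lower at Day 21 was the same in each alternative run. The Day 21 calls of POLR2I, POLR1B and POLR1C rested on the setting. The Day 21 call of POLR2E held in each alternative, but its Day 7 call did not. On centring on all guides, the change of POLR2E from Day 7 to Day 14 was not called (limma adjusted p = 0.055). With all days in 1 fit and no replicate block, that change was not called either (adjusted p = 0.087). The counts below are of polymerase genes, guides and junctions. Other than for guides at Day 21 with the replicate block, no share over all features was taken in an alternative. Whether these counts moved more than those of all features therefore cannot be told. With the median over the guides of a gene, 1 gene was called at Day 14, 1 at Day 21, 1 for the change from Day 7 to Day 21 and 1 for the change from Day 7 to Day 14, and 7 junctions differed from the rest of their gene in place of 12. Centring on all guides, which subtracts a median of −0.31 at Day 21, left 0 genes at Day 7 (2 at an unadjusted p under 0.05 in limma), 3 at Day 14, 1 at Day 21 and 1 for the change to Day 14. The gene left for that change was POLR2I. Centring on control guides left 0 genes at Day 7 (2 unadjusted, limma), 3 at Day 14 and 3 for the change to Day 14. A Day 0 number of at least 50 left 0 genes at Day 7 (2 unadjusted, limma) and 3 for the change to Day 14, and robust moderation left 1 gene at Day 7.

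With all days in 1 fit and no replicate block, limma called 0 guides (12 unadjusted) and 0 genes (2 unadjusted) at Day 7, 24 guides at Day 14 in place of 37 and 0 genes for the change to Day 14 (6 unadjusted). With the replicate block it called 0 guides at Day 7 (22 unadjusted) and 81 at Day 21 in place of 49. Beside POLR2C and POLR3K, the block changed no call of a polymerase gene.

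At Day 21, polymerase II minus polymerase III was −0.31 with the median over the guides of a gene and −0.46 with the median over all guides of a class. Polymerase I minus polymerase III was −0.62 with the mean over genes and −0.60 over all guides, and the subunits of all 3 minus polymerase III was −1.52 and −0.48. Polymerase II minus polymerase I turned to 0.011 with the median over the guides of a gene and 0.14 over all guides. The subunits of all 3 minus polymerase II turned to −0.028 with the median over the guides of a gene, to −0.60 with the mean over genes and to −0.022 over all guides, and with the mean over genes also to −0.20 at Day 7 and −0.40 at Day 14. The cause of these moves was not tested. Leaving out either replicate gave −0.93 to −0.69 for polymerase II minus III, −0.43 to −0.12 for I minus III, −0.41 to −0.12 for all 3 minus III and −1.46 to −1.01 for POLR1C minus III. It gave −0.81 to −0.27 for II minus I and 0.29 to 0.81 for all 3 minus II. For the limma counts leaving out a replicate was not run, since 1 value per day leaves no residual degrees of freedom. Depth limits the lowest guides, those at a whole number of 1, whose loss is a lower bound.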

Other observations

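The table also holds 2 guides to POLR3G, a subunit of polymerase III, which it types as non-essential controls and which are not among the 725. At Day 21 guide 3 had 0.21 and 1.79 in replicates 1 and 2, and guide 4 had 0.27 and −0.80. With 2 guides the gene was below the minimum of 3 and was not tested.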
